A study of Mus musculus with 20 samples.

Results

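Transcripts of 8 genes of the p53 pathway were followed in mouse soleus and gastrocnemius after 24 h of hind-limb suspension (HLS). The genes are Cdkn1a, Mdm2, Ccng1, Trp53inp1, Trp53, Bbc3, Pmaip1 and Bax, taken as every non-control probe that carries one of these names in the scanner files. They were read by 12 probes on 48 spots, of 41174 probes on 43379 non-control spots, and all 8 were among the 25177 genes tested. Mdm2, Ccng1, Trp53inp1 and Trp53 each have a pair of probes; the brighter one stands for the gene and the other is given as probe 2.

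The 20 one-colour Agilent arrays fall into 4 groups of 5: soleus and gastrocnemius of freely moving controls, and both muscles after 24 h of HLS, where a mouse hung by a tail harness, head down at 45 degrees, carries no weight on the hind limbs. All animals were male ICR mice aged 6 months with no engineered allele named in the labels. Both muscles with 1 animal number within an arm came from 1 mouse, so the arrays come from 10 animals, and control and HLS mice are different animals. ICR mice are an outbred stock, and whole muscle holds other cells beside fibres, so fewer cells of a type and less RNA per cell cannot be told apart.

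The transcription factor p53, made from Trp53, is held at a low level by the ubiquitin ligase Mdm2 and is stabilised when DNA is damaged or a cell is stressed. It then raises Cdkn1a, whose protein p21 inhibits cyclin-dependent kinases and stops the cell cycle, its own inhibitor Mdm2, and genes of apoptosis such as Bax, Bbc3 (Puma) and Pmaip1 (Noxa). Cdkn1a is also induced without p53, and in skeletal muscle p21 marks the exit of myoblasts from the cell cycle and is known to rise in disused or denervated muscle.

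Levels below are log2 of the processed spot intensity over the 75th percentile of its own array, and differences are log2 differences from limma with their standard error. Adjusted p is after Benjamini-Hochberg over all 25177 genes, and a call needs a value below 0.05. Each array had 80.75% to 93.08% of its probes well above background, and precision is set by the 5 arrays per group. None of the spots of the 8 genes was saturated or marked uneven. Slow fibre markers were at 7.47 to 8.03 on 9 of the 10 soleus arrays, against 4.76 to 5.8 in gastrocnemius. Soleus HLS 1 stood apart with 5.81, and its fast fibre markers were at 8.82 against 6.47 to 7.81 on the other soleus arrays; both values lie near those of gastrocnemius, and whether its RNA is all from soleus was not tested. Results that turn on this array are given with and without it. HLS and control arrays also lay largely on different slides and, in gastrocnemius, scan days, and spike-in RNA relative to the 75th percentile differed between groups, at 2.55 ± 0.07 in gastrocnemius controls, 1.77 ± 0.13 in gastrocnemius HLS, 1.5 ± 0.05 in soleus controls and 1.75 ± 0.2 in soleus HLS (SD, n = 5); the part of this in the results was not tested.

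The stretches before the annotated starts of Cdkn1a are shown because this gene carries the largest difference in gastrocnemius among the 8. RefSeq lists 2 starts on GRCm38.p6, and each line holds the 250 bases before one of them on the plus strand, at chr17:29090729-29090978 and chr17:29093519-29093768. Capitals mark matches to the p53 decamer, the unit of which p53 elements hold a pair, in the first line and GC boxes (GGGCGG on either strand) in the second.
Cdkn1a start 1: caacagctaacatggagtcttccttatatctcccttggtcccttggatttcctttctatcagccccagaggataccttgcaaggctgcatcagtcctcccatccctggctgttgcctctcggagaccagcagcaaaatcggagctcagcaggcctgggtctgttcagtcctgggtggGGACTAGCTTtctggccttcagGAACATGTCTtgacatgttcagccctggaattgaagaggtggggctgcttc
Cdkn1a start 2: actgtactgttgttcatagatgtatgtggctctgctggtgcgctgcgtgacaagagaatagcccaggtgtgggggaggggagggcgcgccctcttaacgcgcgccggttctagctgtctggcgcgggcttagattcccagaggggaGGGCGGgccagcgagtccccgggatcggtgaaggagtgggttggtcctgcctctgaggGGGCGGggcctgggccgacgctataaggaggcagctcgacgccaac

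The window of start 1 held 2 p53 decamers, GGACTAGCTT at bases -73 to -64 and GAACATGTCT at bases -51 to -42 counted from the start. The search took exact matches only, so the stretch right after the second, tgacatgttc, which falls short of one, is not marked. Whether the 2 marked decamers form a pair was not tested. The window of start 2 held 2 GC boxes and no such decamer. RefSeq promoter windows were searched for 6 of the 8 genes; Trp53inp1 has no entry in the table and the window of Pmaip1 was not analysed here. A single decamer was found before the starts of Mdm2 (GAACTTGCCT), Ccng1 (GGGCAAGCCT), Trp53 (GGACTTGCCC) and Bax (AGGCAAGCTT), and none in the 3 windows of Bbc3. The same search matched 7.13% of all 32851 promoter windows of this length. The FoxO element (GTAAACA on either strand), which 3.17% of all windows held, was matched in the windows of Mdm2 and of Bbc3 start 2. A match of letters does not show that a factor binds there.

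In soleus, HLS was followed by higher transcript levels of Cdkn1a, Trp53inp1 and, on 1 of its 2 probes, Trp53. These 3 of 8 genes passed the test, all upward, beside 5.9% of all genes in either direction and 2.37% upward. Their HLS arrays all lay above their controls, as for 2.13% of all genes. The other 5 did not pass, and their estimates ran from -0.13 for Bax to 0.68 for Pmaip1. The median difference of the 8 genes was 0.43, against 0.05 over all genes.

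Cdkn1a on the 5 soleus control arrays, replicates 1 to 5, was at -0.24, -0.50, -0.20, -0.59 and -0.52. On the 5 soleus HLS arrays it was at 2.16, 0.89, 0.04, 0.19 and 1.23. The groups did not overlap, but HLS 3 and HLS 4 lay just above the highest control while HLS 1 lay far above all. The SD was 0.18 among controls and 0.86 among HLS animals. The rise was 1.31 ± 0.34, a 2.48-fold level, with adjusted p = 0.025 from limma. The probe is spotted 10 times on each array, and the spots of 1 array had a median SD of 0.09, a figure that covers repeat spots alone and not labelling, hybridisation or slide. Without soleus HLS 1 the estimate was 1.00 ± 0.30 with adjusted p = 0.065, and the call was also lost without control 4 (adjusted p = 0.064) or HLS 5 (adjusted p = 0.071).

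Trp53inp1 encodes a p53-induced nuclear protein that also acts in autophagy. In the soleus controls it was at 0.68, 0.33, 0.96, 1.02 and 1.23, and after HLS at 2.32, 2.25, 1.93, 2.33 and 2.81. Every HLS array lay above every control, and the lowest HLS array, at 1.93, was well clear of the highest control, at 1.23. It rose by 1.48 ± 0.17, a 2.79-fold level (adjusted p = 1.4e-05, limma), which is the 36th largest rise of all genes tested. Its probe 2 gave 1.16 ± 0.19 (adjusted p = 0.00077 over 37126 probes, of which 5.41% passed), also with no overlap. Leaving out any 1 of the 10 soleus arrays kept the call, with estimates from 1.35 to 1.58.

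For Trp53 itself the brighter probe was at 0.41, 0.42, 0.49, 0.41 and 0.20 in soleus controls and at 0.75, 0.67, 0.75, 0.80 and 0.60 after HLS. These groups do not overlap, and the difference of 0.32 ± 0.09 passed with adjusted p = 0.043 (limma). Probe 2, which is spotted 10 times per array, ran from 0.13 to 0.32 in controls and from 0.12 to 0.44 after HLS. Its difference was 0.05 ± 0.08 (95% interval -0.12 to 0.22; adjusted p = 0.83), so the 2 probes of this gene disagree. The call on the brighter probe was lost in 8 of the 10 fits that left out 1 soleus array, with adjusted p up to 0.1, and at 0.26 with adjusted p = 0.21 when the array median was the scale.

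**Figure D1:**
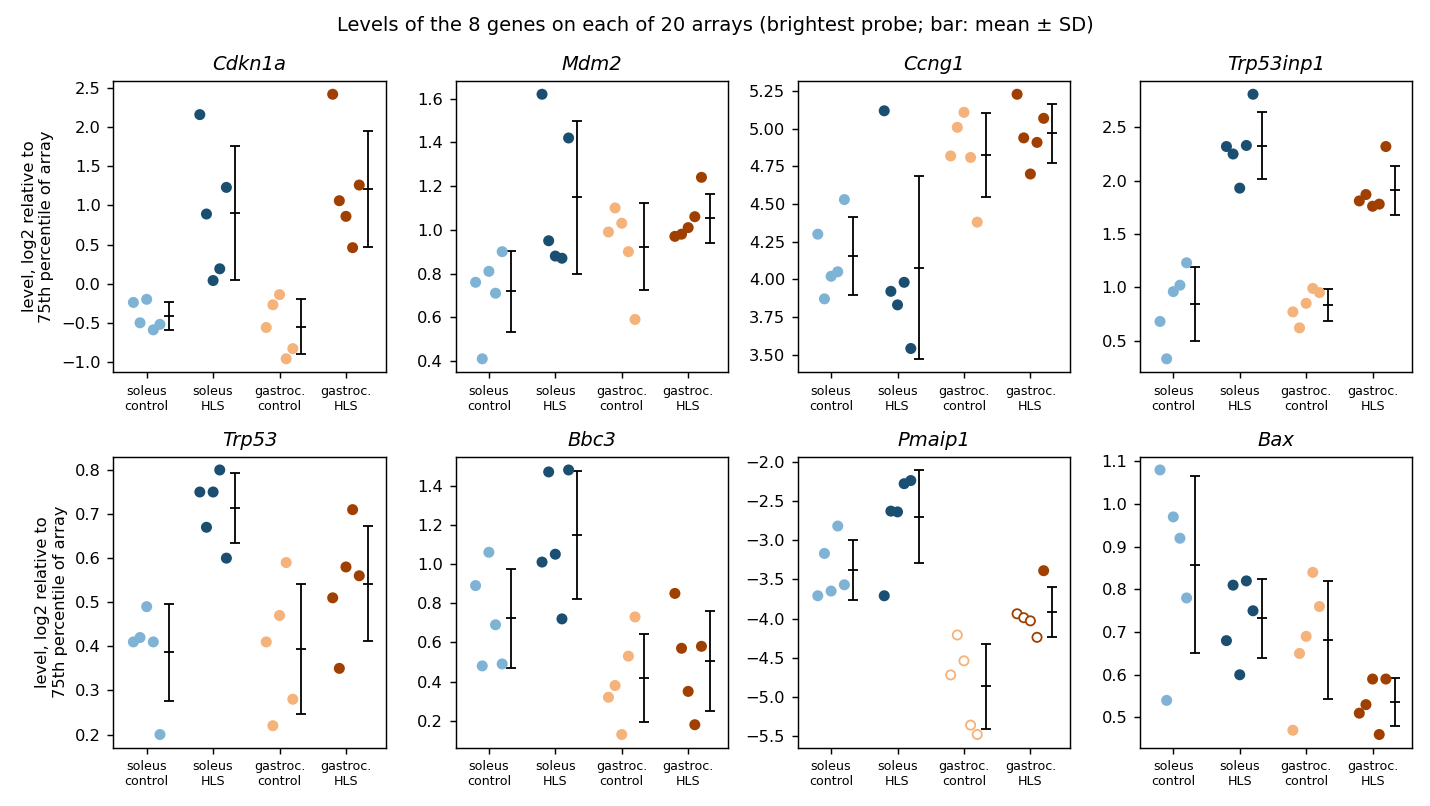
Levels of the 8 genes on each array, with 1 panel per gene, the 4 groups along the horizontal axis and log2 level on the vertical axis, which differs between panels. Points are arrays in order of replicate, open where the probe was not well above background, and bars are the mean ± SD of 5 arrays. Cdkn1a and Trp53inp1 stand above control in both muscles without overlap, and the Cdkn1a levels after HLS are spread widely.

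Mdm2, the ubiquitin ligase that targets p53, was at 1.62 and 1.42 in soleus HLS 1 and 5 and at 0.87 to 0.95 on the other 3 HLS arrays. The soleus controls ran from 0.41 to 0.90, so the groups overlapped. The difference was 0.43 ± 0.14 with adjusted p = 0.087 (limma); it passed at 0.47 with adjusted p = 0.032 after normexp background correction and quantile normalization. Leaving out 1 of the 10 soleus arrays put Mdm2 at 0.31 to 0.50, with adjusted p from 0.053 to 0.22 (limma) and no call. Its probe 2 gave 0.21 ± 0.11 (adjusted p = 0.31). HLS 1 and 5 are also the animals with the highest soleus Cdkn1a.

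Of the pro-apoptotic genes, none passed in soleus. Bbc3, a BH3-only protein, ran from 0.48 to 1.06 in controls and from 0.72 to 1.48 after HLS, a difference of 0.42 ± 0.16 (adjusted p = 0.16). Bax, the pore-forming effector, ran from 0.54 to 1.08 and from 0.60 to 0.82, a difference of -0.13 ± 0.10 whose 95% interval is -0.34 to 0.08. Pmaip1, also BH3-only, was at -3.71 to -2.82 in controls, and at -3.71 in HLS 1 and -2.64 to -2.24 on the other HLS arrays. The difference was 0.68 ± 0.27 (adjusted p = 0.17), and without soleus HLS 1 it was 0.94 ± 0.24 with adjusted p = 0.025, so a call on this gene turns on that array.

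Ccng1 encodes cyclin G1, a p53 target that brings a phosphatase to Mdm2. In soleus its brighter probe was at 3.87 to 4.53 in controls and at 3.54 to 3.98 on 4 of the 5 HLS arrays, with HLS 1 at 5.12. The difference was -0.08 ± 0.22, and -0.34 ± 0.16 without HLS 1 (adjusted p = 0.27, limma). Gastrocnemius arrays lay between 4.38 and 5.23, a range that holds the soleus HLS 1 value. That array also has the fibre marker levels given above, which are close to those of gastrocnemius; their part in its Ccng1 level was not tested.

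In gastrocnemius, Cdkn1a and Trp53inp1 passed, both upward, which is 2 of 8 genes beside 3.18% of all genes in either direction and 1.17% upward. Both also lay above control without overlap, as did 2.92% of all genes. These 2 are also the members that rose in both muscles, as did 0.624% of all genes. The remaining 6 did not pass, with a median over all 8 of 0.14 against 0.01 over all genes.

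Cdkn1a in gastrocnemius controls was at -0.56, -0.27, -0.14, -0.96 and -0.83, and after HLS at 2.42, 1.06, 0.86, 0.46 and 1.26. All HLS arrays lay above all controls, and HLS 1 was again the highest. The rise of 1.76 ± 0.34, a 3.40-fold level, had adjusted p = 0.0055 (limma) and is the 10th largest of all genes tested. Leaving out 1 of the 10 gastrocnemius arrays gave 1.46 to 1.95, with adjusted p no higher than 0.018.

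Trp53inp1 was at 0.77, 0.62, 0.85, 0.99 and 0.95 in gastrocnemius controls and at 1.81, 1.87, 1.76, 1.78 and 2.32 after HLS. It rose by 1.07 ± 0.17, a 2.11-fold level (adjusted p = 0.00094, limma), and HLS 5 stood above the other 4, which lay close together. Probe 2 did not overlap between the groups either and differed by 0.70 ± 0.19, with adjusted p = 0.055 over the 37126 probes, of which 2.83% passed.

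The other 6 genes gave small or poorly measured differences in gastrocnemius. Pmaip1 was not well above background on any of the 5 control arrays and on 4 of the 5 HLS arrays, so no fold is given for it. Trp53 differed by 0.15 ± 0.09 (adjusted p = 0.52) on the brighter probe and 0.09 ± 0.08 on probe 2. Mdm2 differed by 0.13 ± 0.14 and -0.02 ± 0.11 on its 2 probes, Ccng1 by 0.14 ± 0.22 and 0.04 ± 0.13. Bbc3 differed by 0.09 ± 0.16 and Bax by -0.14 ± 0.10. The 95% intervals reached 0.60 for Ccng1 and 0.43 for Mdm2 and Bbc3, so changes of that size could not be told from none.

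**Figure D2:**
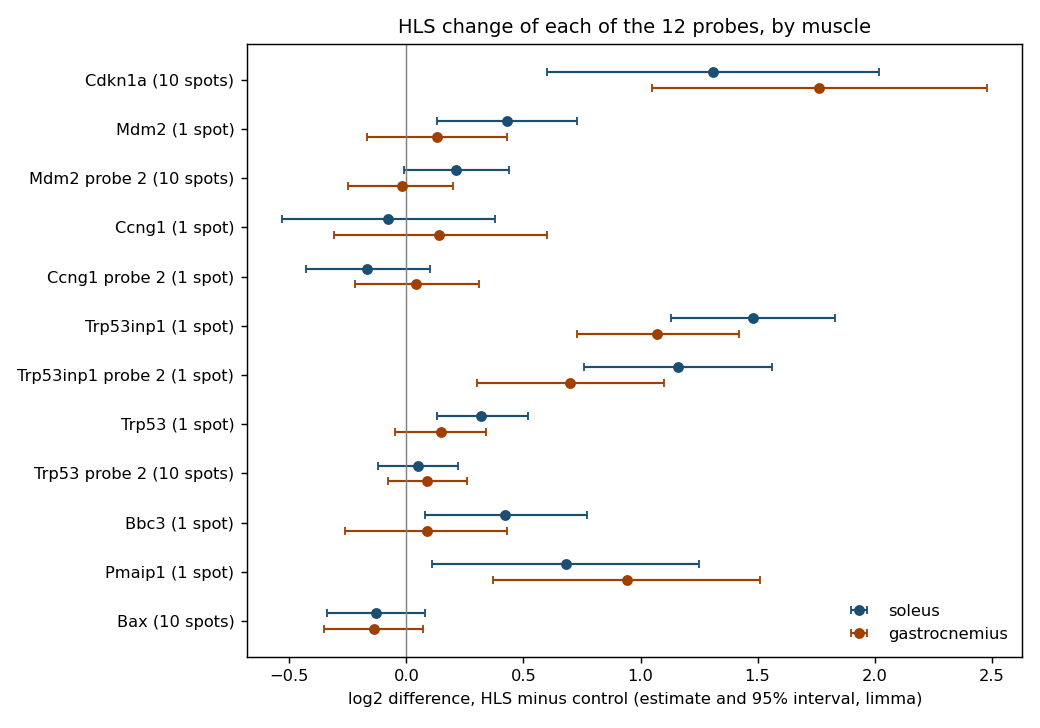
Log2 difference of HLS minus control for each of the 12 probes, with soleus and gastrocnemius drawn as separate points and bars for the 95% interval from limma; the number of spots per array is given beside each probe. The intervals of Cdkn1a and of both Trp53inp1 probes lie above 0 in both muscles, while those of Bax and of both Ccng1 probes include 0.

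Slides and scan days bear on both HLS comparisons. Slide 5 holds soleus control 5 and HLS 1 to 3, and the difference within it was 1.55 for Cdkn1a and 0.94 for Trp53inp1. Without HLS 1 these within-slide values were 0.98 and 0.86. Slide 2 holds gastrocnemius controls 3 to 5 and HLS 1, and there Cdkn1a differed by 3.06 and Trp53inp1 by 0.88. The direction was thus that of the whole comparison within both slides. With slide as a fixed block the estimates rest on these 2 slides alone, with 1 array on one side, soleus control 5 or gastrocnemius HLS 1. No call was kept in that fit, which cannot tell a lost difference from too few arrays. With scan day as a fixed block, Cdkn1a and Trp53inp1 passed in soleus, where HLS 1 to 3 share a scan day with the controls. Cdkn1a on these soleus arrays was at 2.16, 0.89 and 0.04, so its estimate in that fit leans on HLS 1, and the fit without HLS 1 is not given here. In gastrocnemius only HLS 1 shares a scan day with the controls. It is the array with the highest Cdkn1a, at 2.42 against 0.46 to 1.26 on the other HLS arrays. The scan day fit in gastrocnemius thus rests on 1 HLS array. Cdkn1a kept its call in it and Trp53inp1, at 0.98, did not, and neither outcome bears on the other HLS arrays.

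Whether HLS acted differently on the 2 muscles was tested as the difference between the soleus and the gastrocnemius change. None of the 8 genes passed, none had an unadjusted p below 0.05, and 0.00794% of all genes passed. The soleus minus the gastrocnemius change was -0.46 ± 0.48 for Cdkn1a (95% interval -1.47 to 0.56) and 0.41 ± 0.23 for Trp53inp1 (-0.08 to 0.90). These intervals are wide, so the muscles were not shown to respond alike. They come from a fit that leaves out the pairing of the 2 muscles by animal. With the animal as a block none of the 8 genes passed after adjustment either, and the unadjusted p values of that fit are not given here.

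Cdkn1a levels of the 2 muscles of a mouse were compared, to see whether the spread between HLS animals was shared by their muscles. After subtraction of the group means, the soleus and gastrocnemius values of the same mouse correlated over 10 animals with Pearson's r of 0.89 and Spearman's rho of 0.87. The exact permutation p was 0.0037 for r and 0.0044 for rho, over all 14400 pairings within the arms, and 0.015 and 0.018 after adjustment over the 8 genes. Without the 2 animals farthest from the median in soleus, HLS 1 and HLS 3, r was 0.79. HLS 1 was the highest in both muscles, followed in both by HLS 5 and then HLS 2. The relation leans on HLS 1, the most extreme pair, whose soleus array has fibre markers near those of gastrocnemius. Without this animal r was 0.67 and rho 0.78 over 9 animals, with an exact permutation p of 0.042 and 0.016 over 2880 pairings, and neither passed after adjustment over the 8 genes (0.11 and 0.064).

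Trp53inp1 gave r of 0.88 and rho of 0.88 in the same test, with an exact permutation p of 0.0019 and 0.0035 (adjusted 0.015 and 0.018), and r of 0.70 without HLS 5 and control 2. Without HLS 1 it kept r of 0.89 and rho of 0.93, with an exact permutation p of 0.0035 and 0.0038 (adjusted 0.028 and 0.031). HLS 5 was the highest and HLS 3 the lowest of the HLS animals in both muscles, and control 2 the lowest control in both. The order of the animals was not that of Cdkn1a: within groups, the 2 genes correlated at 0.14 over the 20 arrays. The other 6 genes had r from -0.33 to 0.46, with adjusted p of 0.59 or more, and without HLS 1 none of them passed after adjustment, with Ccng1 at r of -0.78 (exact permutation p = 0.026, adjusted 0.11). A different measure, the correlation of deviations across all genes within 1 animal, had a median of 0.037 over the 10 animals. It is no background for these r values, and the share of all genes with such an r was not computed. None of the 6 slides held both muscles, so no shared slide enters these pairs, and no value within a slide can be given. The relation was noticed in these data before it was tested.

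**Figure D3:**
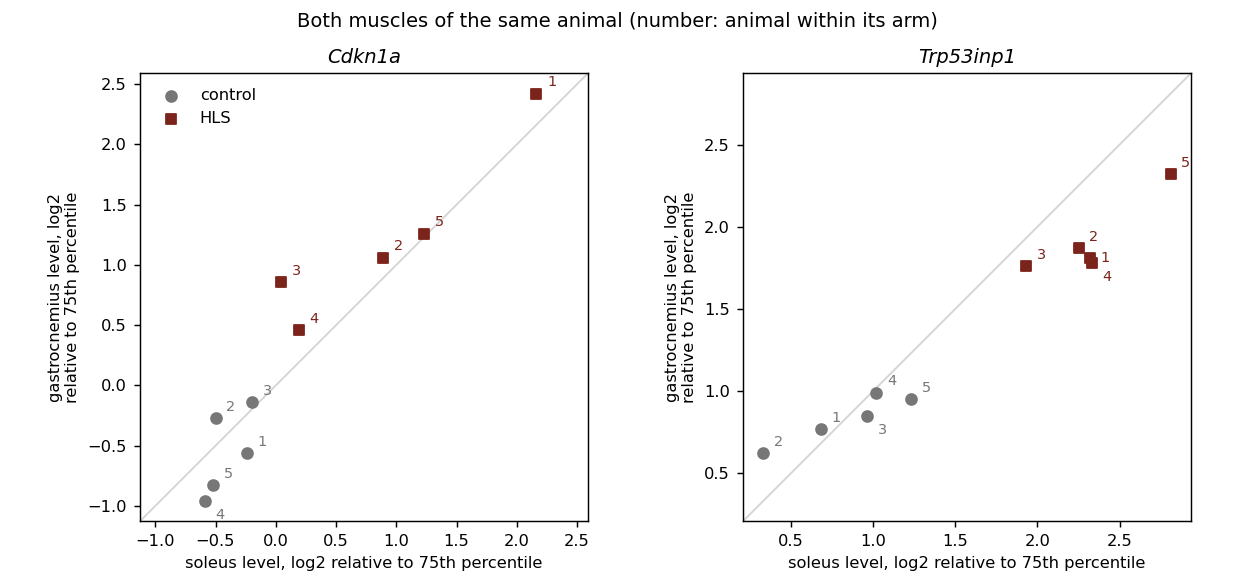
Soleus level (horizontal) against gastrocnemius level (vertical) of Cdkn1a and Trp53inp1 in each of the 10 animals, both on the log2 scale. Circles are controls and squares HLS animals, numbered within their arm, and the grey line marks equal values. Cdkn1a in HLS 1 is the highest in both muscles, at 2.16 and 2.42, and Trp53inp1 in HLS 5, at 2.81 and 2.32.

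Across the 4 groups, Cdkn1a was ordered from gastrocnemius HLS (1.21 ± 0.74, SD, n = 5) to soleus HLS (0.90 ± 0.86), soleus control (-0.41 ± 0.18) and gastrocnemius control (-0.55 ± 0.35). Only the step from HLS to control exceeded the larger SD of its neighbours. Trp53inp1 ran from soleus HLS (2.33 ± 0.31) to gastrocnemius HLS (1.91 ± 0.24), soleus control (0.85 ± 0.35) and gastrocnemius control (0.84 ± 0.15), and its 2 control groups were alike within their spread on this brighter probe. On its probe 2 the soleus controls lay lower than the gastrocnemius controls by 0.45 (SE 0.19, adjusted p = 0.077 over probes, limma).

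In control mice, soleus and gastrocnemius differed in 2 of the 8 genes, beside 33.5% of all genes. The control arrays of the 2 muscles lay on different slides and different scan days throughout. Muscle therefore cannot be told apart from slide or scan day in this comparison. Pmaip1 was brighter in soleus, where all 5 control arrays were well above background, than in gastrocnemius, where none was. It was kept for testing through its soleus arrays alone, so its call between muscles is a description and not support. The fitted difference was 1.48 ± 0.27 (adjusted p = 0.00044, limma). As a floor, each gastrocnemius array was given the lowest signal of any probe well above background, or the probe's own where higher. The soleus mean lay 1.12-fold above the mean floor in controls and 1.65-fold after HLS. In log2 these are 0.16 and 0.72, beside an SD of 0.38 and 0.59 among the soleus arrays. The control figure is thus within the spread, and neither figure is a lower bound. Ccng1 was lower in soleus on its brighter probe, with soleus minus gastrocnemius at -0.67 ± 0.22 (adjusted p = 0.023), but its probe 2 differed by -0.12 ± 0.13 (adjusted p = 0.50 over probes, of which 33.1% passed). The Ccng1 call was lost without gastrocnemius control 2 (adjusted p = 0.054) or 3 (0.057) or soleus control 2 (0.053). All genes together shifted from a median of -0.05 to 0.11 in this comparison when the array median was the scale, and Ccng1 was then at -0.51 (adjusted p = 0.095) while Bbc3 (0.47, adjusted p = 0.029) and Bax (0.34, adjusted p = 0.025) passed. With scan day as a block the estimates were -0.35 for Ccng1 and 1.45 for Pmaip1. Since the control muscles share no scan day, that fit takes the day difference from gastrocnemius HLS 1 against the other gastrocnemius HLS arrays. Resting on 1 array, it cannot decide whether the control muscles differ.

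Among 29 other p53 targets tested of 30 listed, 5 rose and 2 fell in soleus, and 4 rose and 1 fell in gastrocnemius, beside 2.37% of all genes higher and 3.53% lower in soleus and 1.17% and 2.01% in gastrocnemius. The list medians were 0.04 and 0.09, against 0.05 and 0.01 over all genes. Gadd45a, a growth arrest gene, rose by 2.77 ± 0.27 in soleus and 1.36 ± 0.27 in gastrocnemius. Eda2r, a TNF receptor family member, rose by 2.27 ± 0.26 in soleus (adjusted p = 1.5e-05, limma) and by 1.31 ± 0.26 in gastrocnemius (adjusted p = 0.0063). Ddit4, an mTORC1 inhibitor, rose by 2.14 ± 0.53 in soleus and 2.55 ± 0.53 in gastrocnemius. Zmat3, an RNA-binding p53 target, fell by 0.74 (SE 0.11) in soleus and fell by 0.63 (SE 0.11) in gastrocnemius, and Sfn, a 14-3-3 protein, fell by 0.44 (SE 0.13) in soleus and was at -0.39 ± 0.13 in gastrocnemius (adjusted p = 0.11). Ddit4 and Gadd45a, like Cdkn1a, are also known targets of other factors.

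Of 22 tested regulators and relatives of p53, 1 rose and 1 fell in soleus and 1 rose in gastrocnemius, shares near the 5.9% and 3.18% of all genes. Trp53bp2, which encodes the p53-binding protein ASPP2, rose by 0.74 ± 0.16 and 0.72 ± 0.16 in the 2 muscles, and Trp53inp2, a regulator of autophagy, fell by 0.58 (SE 0.15) in soleus and was at -0.54 ± 0.15 in gastrocnemius (adjusted p = 0.06). Among 6 tested CDK inhibitors beside Cdkn1a, Cdkn1c (p57) rose in soleus by 0.78 ± 0.22 (adjusted p = 0.037); in gastrocnemius its difference was 0.79 ± 0.22, with adjusted p = 0.053 and no overlap between the groups. Of 15 other Bcl-2 family genes, the BH3-only gene Bmf rose by 1.31 ± 0.24 in soleus and 1.06 ± 0.24 in gastrocnemius. In soleus Bnip3l, a mitophagy receptor, also rose (0.45 ± 0.12), and the pro-survival gene Bcl2l2 fell by 0.37 (SE 0.10); in gastrocnemius they were at 0.23 ± 0.12 and -0.08 ± 0.10 and did not pass.

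Of 18 cyclins, CDKs and replication genes, 1 rose and 2 fell in soleus, and 4 fell in gastrocnemius, beside 3.53% and 2.01% of all genes lower. Ccnd1, cyclin D1, whose kinases p21 binds, fell by 1.88 (SE 0.20) in soleus and fell by 1.67 (SE 0.20) in gastrocnemius. Ccnd2 fell by 0.89 (SE 0.20) in soleus and fell by 0.90 (SE 0.20) in gastrocnemius (adjusted p = 0.0078 and 0.013). The cell cycle brake Rb1 rose by 0.58 ± 0.13 in soleus and was at 0.28 ± 0.13 in gastrocnemius (adjusted p = 0.33). Mcm5, a subunit of the replicative helicase, fell by 1.06 (SE 0.19) in gastrocnemius and was at -0.49 ± 0.19 in soleus (adjusted p = 0.16). The difference between the muscles passed for none of the listed genes. The list medians were -0.08 in soleus and -0.25 in gastrocnemius, against 0.05 and 0.01 over all genes.

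**Figure D4:**
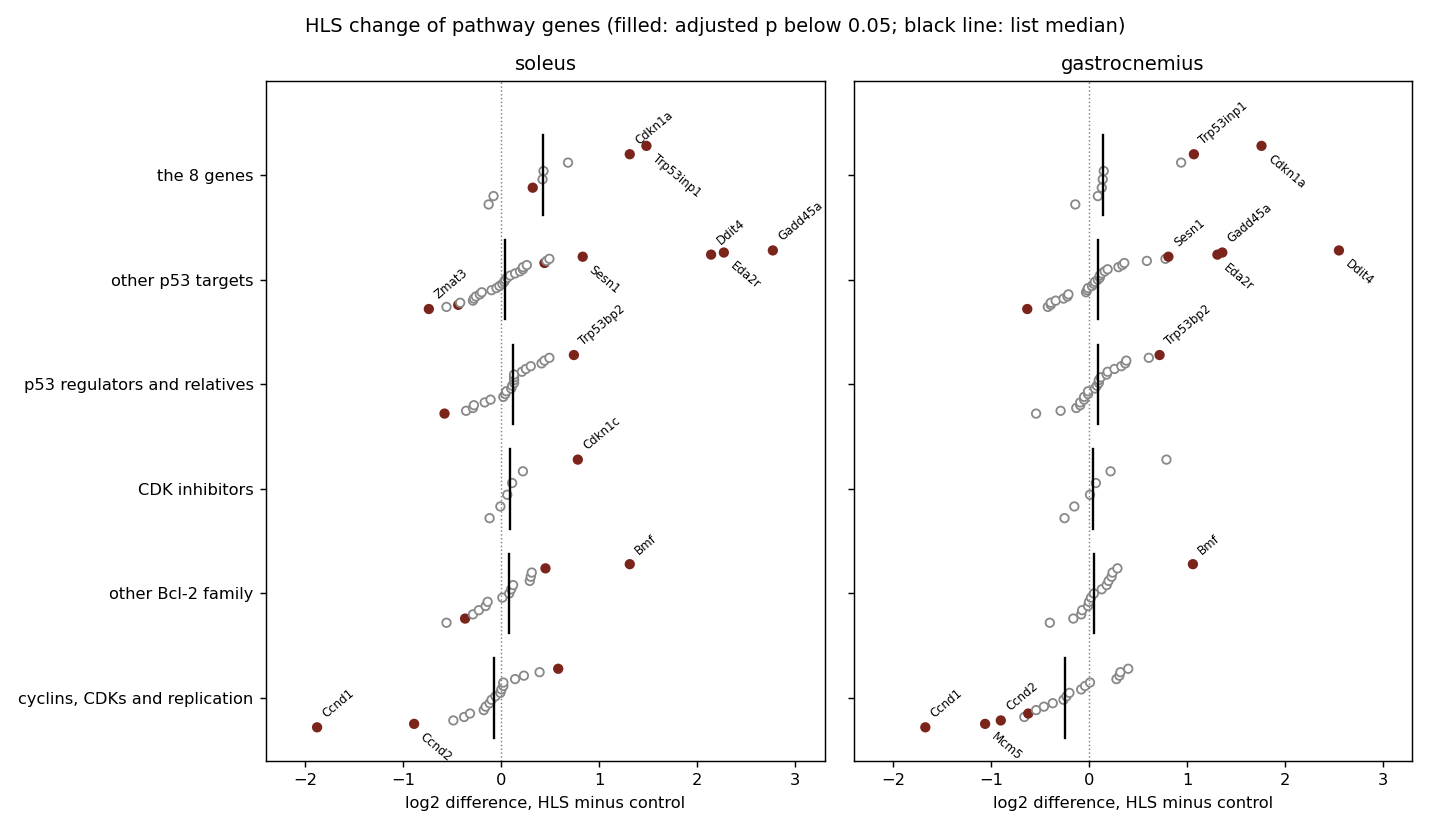
Log2 difference of HLS minus control for the tested genes of each list, soleus at left and gastrocnemius at right, with each point 1 gene, filled where adjusted p was below 0.05, and a black line at the list median. Passing genes with a difference above 0.7 in size are named. Cdkn1a and Trp53inp1 lie far to the right of the other 6 genes they are grouped with in soleus, and Ccnd1 at -1.88 and -1.67 lies far to the left in both muscles.

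Markers of satellite cells and myoblasts, in which p21 acts during differentiation, were measured beside these genes. Of 6 listed, 5 were tested and Myf5 was not kept. Cdh15 rose in soleus (0.47 ± 0.12, adjusted p = 0.018) and Myog in gastrocnemius (0.93 ± 0.23, adjusted p = 0.026), beside 2.37% and 1.17% of all genes higher. Neither passed in the other muscle, with Cdh15 at 0.23 ± 0.12 in gastrocnemius and Myog at 0.32 ± 0.23 in soleus. Pax7, Myod1 and Megf10 passed in neither muscle, and Pax7 was at 0.18 ± 0.20 in soleus and -0.02 ± 0.20 in gastrocnemius. The summed linear level of the markers relative to the 75th percentile gives most weight to the brightest, Myog and Cdh15. It ranged from 4.77 to 6.94 in soleus controls and from 6.24 to 8.65 after HLS, and from 4.04 to 5.75 and from 5.46 to 7.08 in gastrocnemius. Their part in the Cdkn1a result was not tested. None of the tested markers of slow or fast fibres, macrophages, neutrophils, Schwann cells or adipocytes passed in either muscle. Some of these lists nonetheless lay on 1 side in soleus: 0 of 7 slow fibre markers were above 0 (median -0.56), 6 of 6 fast fibre markers were (0.26), and 0 of 5 adipocyte (-0.72) and 0 of 5 Schwann cell markers (-0.32), where Schwann cell and adipocyte markers were also all below 0 in gastrocnemius (medians -0.25 and -0.15). The summed slow fibre level ranged from 1760 to 2260 in soleus controls and from 837 to 2120 after HLS, with medians of 2010 and 1910. Mean slow fibre levels were 7.47 to 7.97 on soleus HLS 2 to 5 and 7.63 to 8.03 in soleus controls. Mean fast fibre levels were 6.63 to 7.80 and 6.47 to 7.81. Soleus HLS 1 was at 5.81 and 8.82, so the soleus differences of both fibre lists lean on that array. The part of the marker lists in the results was not tested. Of the fibroblast (6 tested), tendon, endothelial and smooth muscle markers (5 tested each), 3 fell in soleus (Mfap5, Scx, Tagln) and 2 in gastrocnemius (Scx, Kdr). None rose, and 3.53% and 2.01% of all genes were lower in the 2 muscles.

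Genes whose levels followed Cdkn1a were ranked by Pearson's r over the 20 arrays, as a description. With group means subtracted, the 5 highest were ENSMUST00000074313 (0.92), Slc38a4 (0.888), Eda2r (0.851), 1700029N11Rik (0.836) and Olfr399 (0.834). Without subtraction they were Syt12 (0.878), Eda2r (0.877), Zfyve1 (0.863), Depp1 (0.862) and BI152977 (0.856), and Eda2r is the gene on both lists. Without soleus HLS 1, r for the first list lay between 0.784 (Eda2r) and 0.879 (ENSMUST00000074313), and for the second between 0.817 (BI152977) and 0.855 (Zfyve1). Among the 7 other members, r with group means subtracted was 0.61 for Ccng1, 0.58 for Mdm2, 0.36 for Bbc3 and -0.23 for Trp53. Without soleus HLS 1 these were 0.30, 0.37, 0.55 and -0.34 over 19 arrays, so the Ccng1 and Mdm2 values lean on that array.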

How the data were processed

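Total RNA of each muscle (600 ng, per the labels' protocols) was labelled with Cy3 and hybridised to 1 array. Per the file headers, Agilent Feature Extraction 9.1.3.1 produced the deposited linear spot intensity, with detrended background and no scaling between arrays. The authors' own value matrix, equal to that intensity within 0.5%, was one alternative. The authors' statistical test is not given in these sources.

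Spots marked uneven were dropped, every array was divided by the 75th percentile of its non-control spots (385.1 to 735), and log2 values of a probe's spots were averaged. Probes had to be well above background on 4 or more of the 5 arrays in any group, and the brightest kept probe stood for a gene. With limma 3.58.1 in R 4.3.3 (data.table, release 1.17.8), a model of 4 group means was fitted to the 20 arrays, with two-sided tests, and was tested on simulated data. Figures used matplotlib 3.10.9. Promoter windows are from RefSeq (GRCm38.p6), searched on both strands.

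The members and lists were chosen with earlier results of these data known. Named are all 8 genes with all probes, from each list and HLS comparison up to 2 passing genes at each end, and the 5 genes most correlated with Cdkn1a on each scale; Cdh15, Myog and the marker lists were added after their values were seen. Alternatives were the array median as scale, quantile normalization with and without normexp (offset 50), the authors' values, no filter, a filter on all arrays, each probe tested, only the groups compared, slide or scan day as a block, a replicate block, and each array left out. Within-slide and within-day values, and correlations without HLS 1, were chosen after seeing the data.

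Both muscles of a number within an arm are 1 animal, per the labels, and comparisons between muscles were also run with the animal as a block. Deviations of the 2 muscles of an animal correlated at -0.345 to 0.169 over genes. Control and HLS mice share only numbers, and their deviations correlated at -0.305 to 0.166.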

Additional observations from a re-analysis of the deposited data

Results flagged for a closer look

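In 7 of 48 groups (12 probes in 4 groups each), 1 array lay far from the other 4 by Dixon's ratio at its 95% critical value of 0.71; chance alone marks about 1 group in 20. In soleus HLS 1, Ccng1 was high at 5.12 and Pmaip1 low at -3.71, and this is the array whose fibre markers stood apart. In HLS 5, Trp53inp1 was high in gastrocnemius at 2.32 and Mdm2 probe 2 was high in soleus at -0.01. In soleus control 5, Trp53 was low at 0.20. Probe 2 of Trp53 was high in gastrocnemius control 5 at 0.34 and low in gastrocnemius HLS 3 at 0.22, in groups whose SD was 0.10 and 0.02.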

How the results depend on the processing

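The count of the 8 genes called was 3 in soleus and 2 in gastrocnemius, 0 for their difference and 2 between control muscles. With slide as a fixed block it was 0 in soleus and 0 in gastrocnemius; the muscle comparison could not be fitted so, as no slide holds both muscles. With scan day as a fixed block, the fits in gastrocnemius and between muscles rest on 1 array, gastrocnemius HLS 1, so their counts are not read. Between muscles, a filter on all arrays, which drops Pmaip1, left 1. Leaving out 1 array gave 1 to 3 in soleus (1 without control 4), 2 to 3 in gastrocnemius, 0 to 0 for the difference, and 1 to 2 between muscles (1 without gastrocnemius control 2 or 3). The replicate block by number kept Cdkn1a and Trp53inp1 in both muscles, with 2 called in each, and put Trp53 in soleus at 0.32 with adjusted p = 0.081 (limma), while all calls fell from 1486 to 1065 in soleus and from 801 to 484 in gastrocnemius. The animal as replicate block changed no call on these genes, with 0 and 2.

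Estimates near 0 changed sign. With the array median as scale, Trp53 between muscles was 0.16 and Bax for the difference 0.00. After normexp and quantile normalization, Pmaip1 for the difference was 0.09. Trp53inp1 between muscles was -0.05 after normexp, -0.09 after quantile normalization, 0.00 with slide as a random block and -0.11 with scan day, where Ccng1 in soleus was 0.13. With 1 array left out, Trp53inp1 between muscles ran from -0.09 to 0.14, Trp53 from -0.05 to 0.04, Bax for the difference from -0.06 to 0.07 and Ccng1 in soleus from -0.34 to 0.06. Pmaip1 in gastrocnemius passed after quantile normalization (1.20, adjusted p = 0.03) and without gastrocnemius control 2 (1.11, adjusted p = 0.044), on arrays where it is mostly not above background. Over all genes, slide as a fixed block left 23 calls in soleus and 10 in gastrocnemius, and scan day left 772, 16 and, between muscles, 1370 of 8430. With only the groups compared in the fit, soleus had 699 calls, and after normexp gastrocnemius had 1302. The share of calls that were higher went from 40.2% to 28.4% in soleus and from 37.7% to 64.5% between muscles with the array median as scale, and there to 48.2% after normexp and 47.3% after quantile normalization.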
